A study of Rattus norvegicus with 63 samples.

Results

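Kidneys of rats killed 0.75 h after they were injected with the synthetic glucocorticoid methylprednisolone were compared with kidneys of rats that received no injection. The members were the 3 arrays of the main type labelled 0.75 h and the 4 arrays of that type labelled 0 h, that is 7 of the 53 arrays of the main type and of the 63 arrays of the series, and all probe sets of the array were considered. A probe set is a group of short probes for 1 transcript on an Affymetrix expression array, and each array measured total RNA of whole rat kidney. The series follows the kidney to 72 h, with 17 times in all on the main type. The labels give no dose, strain, sex, age or clock hour for either group, and no allele or other treatment. All untreated arrays belong to 0 h, and no array of a rat given vehicle at 0.75 h was analysed here, so the drug, the injection itself and the passing of 0.75 h cannot be told apart. The labels number the replicates but do not say that each came from a separate animal. The p-values measure the spread between arrays of the same time, pooled over all 17 times, and this spread may be technical. The arrays labelled 0.5 h and 1 h, 3 of each, served as the nearest neighbours in time.

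Glucocorticoids enter cells and bind the glucocorticoid receptor, which then moves into the nucleus, where it binds DNA and raises the transcription of target genes directly, often within minutes. The receptor also lowers the transcription of inflammatory genes driven by NF-kappaB and AP-1, in part through proteins that its own targets encode. In the kidney, glucocorticoids are known for acting on sodium transport, on acid and glucose handling and on the local clock.

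Values are signals, the deposited intensities, which the authors scaled on each array. Differences are on the log2 scale after adding 7.63 to each signal, ± the standard error. They understate the change of dim genes. A gene rose or fell where limma, with 1 fit over all 17 times, gave a Benjamini-Hochberg adjusted p under 0.05 over the 9520 probe sets tested, those with a mean signal of about 52.3 or more. The median signal of an array was 75.3 to 78.3 at 0 h and 79.2 to 79.8 at 0.75 h. Across probe sets the log2 values of 2 arrays correlated with r of 0.944 to 0.971 within 0 h, 0.957 to 0.967 within 0.75 h and 0.935 to 0.960 between the groups. Kidney markers were abundant in both groups: the signals of 14 proximal tubule markers summed to 30148 to 34389 at 0 h and to 32205 to 35467 at 0.75 h. Of the members of 13 marker lists bright enough to be tested none rose or fell, but the adipose list had no tested member, the adrenal and skeletal muscle lists 1 each and the list of T and B lymphocytes 2. The summed signal of 12 macrophage and neutrophil markers was 1569 to 1937 at 0 h and 2186 to 2383 at 0.75 h, without overlap, while S100a8 and Itgam stayed near 0. In whole tissue more cells of a type and more RNA per cell cannot be told apart, and the part of these cells in the results was not tested. The summed signal of 3 erythrocyte markers was 1191 to 1414 at 0 h and 906 to 1152 at 0.75 h.

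At 0.75 h, 31 probe sets were higher than at 0 h and 3 probe sets, of 3 genes, were lower. Of the 31, all but 2 belonged to 28 named genes. The higher genes included classical glucocorticoid targets (Sgk1, Per1, Tsc22d3, Ddit4), brakes on inflammatory signalling (Nfkbia, Zfp36, Dusp1) and the matrix-associated growth factor gene Ccn2. The 3 lower genes were Klf10, Ly6i and Nsmce3. Of all probe sets tested, 0.326% were higher and 0.0315% lower. The 15 largest rises ran from 1.51 (Nr4a1) to 3.65 (Nfkbia) on the log2 scale. On all 34 probe sets called, no 0.75 h array reached into the range of the 0 h arrays. At an unadjusted p under 0.05 there were 336 probe sets, or 3.53% of those tested, with 181 higher and 155 lower, and 60 probe sets differed by more than 1 on the log2 scale. The 2 higher probe sets outside these 28 genes have no symbol or several symbols listed and are given without a name. The former had signals of 53.6 to 88.5 at 0 h and of 187 to 217 at 0.75 h, and the latter of 147 to 162 and of 355 to 390. The call for the latter was lost on leaving out any of the 7 arrays (adjusted p of 0.102 to 0.29).

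**Figure D1:**
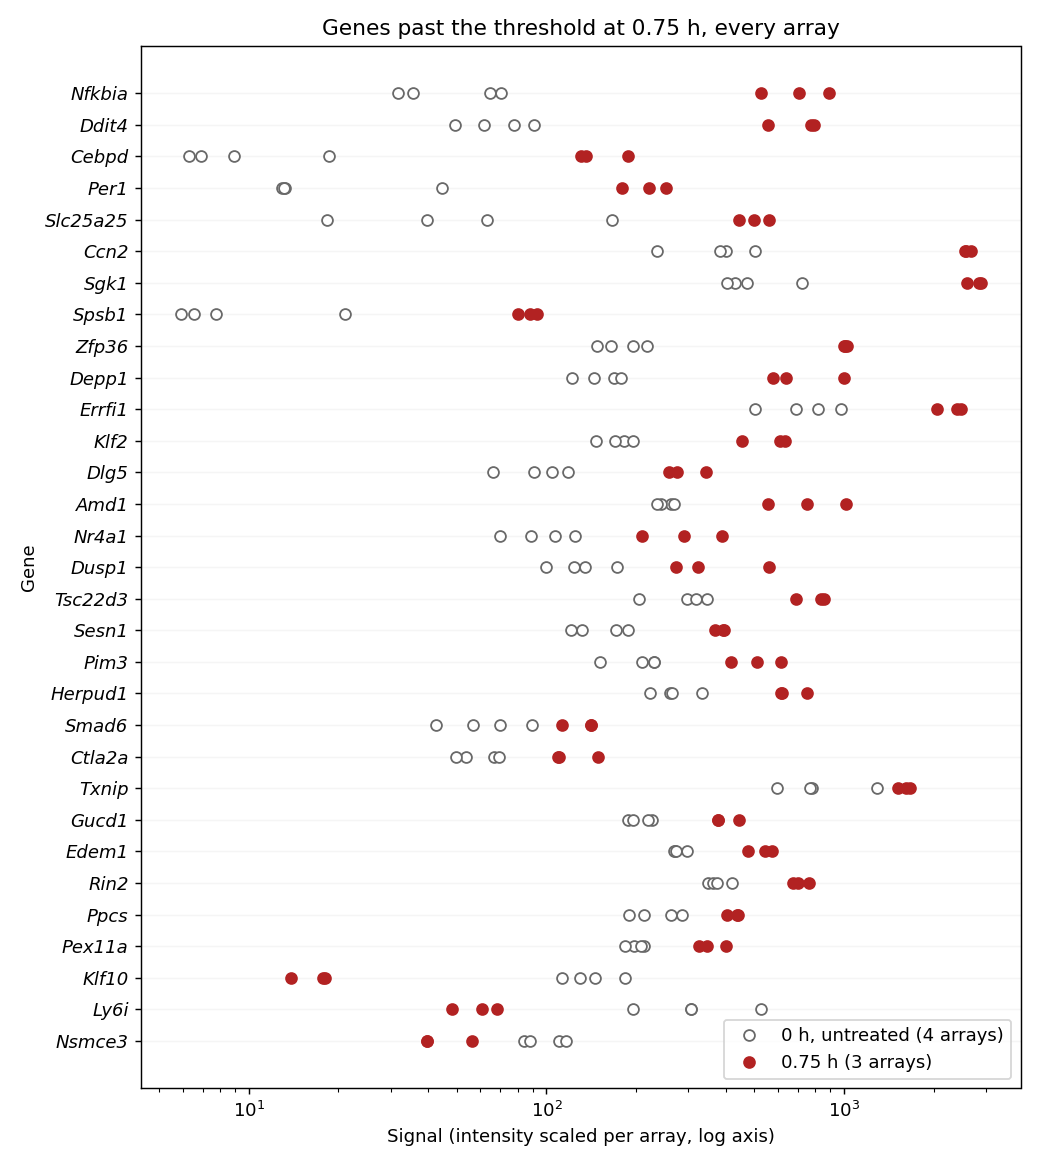
Signal of each named gene past the threshold (rows) on each array, on a log axis. Open circles are the 4 untreated arrays at 0 h and filled circles the 3 arrays at 0.75 h, which lie to the right of all open circles in 28 genes and to the left in Klf10, Ly6i and Nsmce3.

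**Figure D2:**
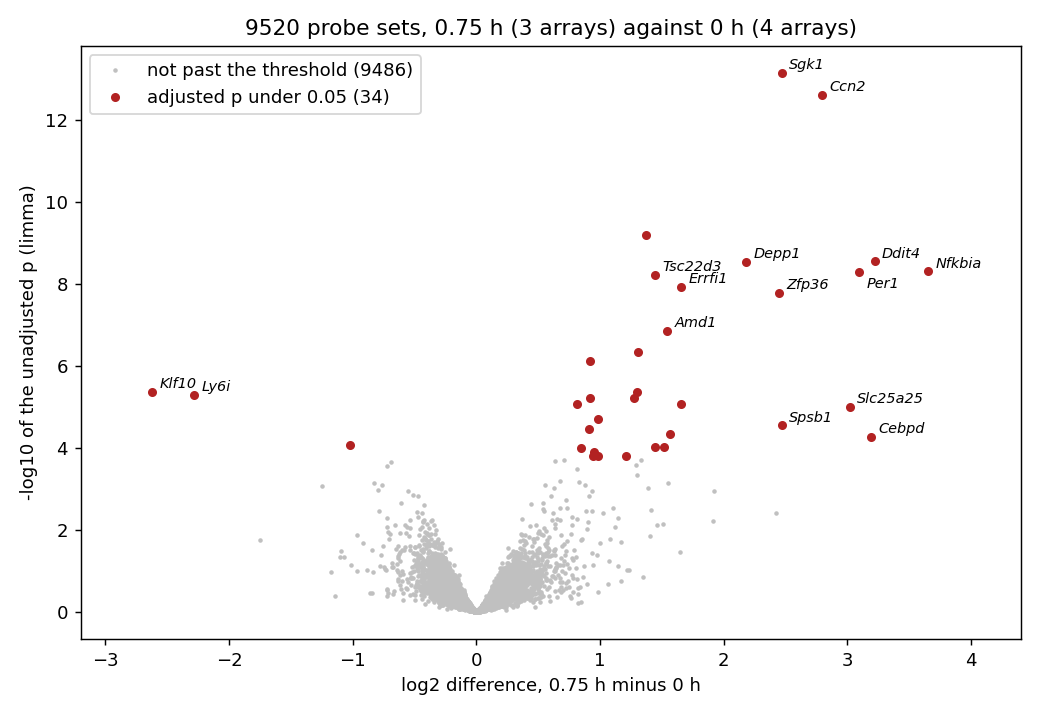
The log2 difference between 0.75 h and 0 h (x axis) against -log10 of the unadjusted limma p (y axis) for the 9520 probe sets tested. Filled points are the 34 probe sets with an adjusted p under 0.05, of which 31 lie to the right of 0.

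Sgk1 and Tsc22d3 belong to the aldosterone and glucocorticoid pathway of the distal nephron: Sgk1 is a kinase that keeps the epithelial sodium channel at the cell surface, and Tsc22d3 encodes GILZ, a glucocorticoid-induced leucine zipper protein. Sgk1 had signals of 473, 429, 403 and 720 at 0 h and of 2834, 2598 and 2876 at 0.75 h. The lowest treated array lay far above the highest untreated array, and the treated arrays lay close together. The rise was 2.47 ± 0.22, a 5.54-fold change with a 95% interval of 2.02 to 2.92 on the log2 scale, and had the smallest adjusted p of the comparison, 6.7e-10. Tsc22d3 had signals of 297, 318, 205 and 347 at 0 h and of 835, 692 and 857 at 0.75 h, without overlap, a rise of 1.44 ± 0.20 with an adjusted p of 6.91e-06. At 1 h Sgk1 stood at 2952, 2441 and 3534 and Tsc22d3 at 1137, 1030 and 1073. Of 19 sodium and potassium handling genes tested, 2 rose, Sgk1 and Tsc22d3, and none fell. Counted by the brightest probe set of each of 7106 genes, 0.38% of all genes tested rose and 0.0422% fell. The list's median difference was 0.03, against a median of all genes of -0.00427. Scnn1a, the alpha subunit of the sodium channel, had signals of 107, 140, 149 and 288 at 0 h and of 178, 218 and 162 at 0.75 h, which overlapped (difference 0.20, 95% interval -0.48 to 0.88).

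Nfkbia, Zfp36, Dusp1 and Spsb1 encode brakes on inflammatory signalling. Nfkbia encodes the inhibitor that holds NF-kappaB in the cytoplasm, and its signals were 35.6, 64.5, 31.7 and 70.1 at 0 h and 894, 706 and 525 at 0.75 h. Every treated array lay several times above every untreated array, and the rise of 3.65 ± 0.49 (12.6-fold, adjusted p = 6.69e-06) was the largest of the comparison. None of the other 8 NF-kappaB subunits and inhibitors tested rose or fell. Nfkb1, a subunit gene, had 209, 243, 222 and 260 at 0 h against 253, 273 and 259 at 0.75 h. Zfp36 encodes tristetraprolin, which binds AU-rich elements of cytokine mRNAs and speeds their decay. It had 148, 218, 165 and 195 at 0 h and 1026, 1009 and 996 at 0.75 h. The treated arrays were nearly equal and all above the untreated ones, with a rise of 2.44 ± 0.35 (adjusted p = 1.55e-05). Dusp1 encodes a phosphatase that switches off p38 and JNK kinases. It rose from 99.5, 173, 124 and 134 to 562, 272 and 323, with replicate 1 highest, by 1.44 ± 0.33 (adjusted p = 0.0308). Spsb1, a SOCS-box adaptor of ubiquitin ligases, had 7.77, 21.1, 6.56 and 5.92 at 0 h and 93.0, 80.1 and 88.0 at 0.75 h. It was near the bottom of the scale at 0 h, so that its rise of 2.47 ± 0.52 (adjusted p = 0.0114) depends on the constant added, and was 1.54 (adjusted p = 0.0892) with 4 times that constant. The call for Spsb1 was also lost without 0 h replicate 3 or 4 or without any 0.75 h array (adjusted p of 0.0507 to 0.089). That for Dusp1 was lost without 0 h replicate 1, 3 or 4 or without 0.75 h replicate 1 or 3, with an adjusted p of up to 0.634 without 0.75 h replicate 1. With the replicate number in the fit both calls were lost (Dusp1 0.084, Spsb1 0.0713), and that for Dusp1 also without the arrays lettered b or c (0.0589).

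Of 11 mRNA decay factors and MAP kinase phosphatases tested, Zfp36 and Dusp1 rose and none fell, around a median difference of -0.11. The paralogues of Zfp36 had other values: Zfp36l2 had 263, 299, 310 and 326 at 0 h against 198, 168 and 206 at 0.75 h, and Zfp36l1 had 811 to 1193 against 676 to 817. Neither passed the test (differences of -0.63 and -0.37, adjusted p = 0.999 for both). Among 7 genes of cytokine signalling and its brakes only Spsb1 rose. Socs3, an inhibitor of JAK kinases, had 69.8 to 82.1 at 0 h and 97.6 to 102 at 0.75 h, apart but not past the test (0.40, adjusted p = 0.999).

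Ddit4, Sesn1, Errfi1 and Depp1 act on growth and energy metabolism. Ddit4 (REDD1) restrains the growth kinase complex mTORC1, and it had 61.6, 77.7, 49.3 and 90.6 at 0 h and 795, 555 and 772 at 0.75 h. All treated arrays lay well above the untreated ones, with a rise of 3.22 ± 0.42 (9.32-fold, adjusted p = 5.43e-06). Sesn1, a sestrin that also restrains mTORC1, rose from 121, 189, 132 and 171 to 395, 368 and 392, by 1.31 ± 0.22 (adjusted p = 0.000354). Errfi1 (MIG6) binds and inhibits the epidermal growth factor receptor. It was bright in untreated kidney, with 815, 974, 502 and 691, and reached 2405, 2056 and 2468, a rise of 1.66 ± 0.23 (adjusted p = 1.21e-05). Depp1, a regulator of autophagy downstream of FOXO factors, went from 168, 122, 177 and 144 to 996, 576 and 638 (2.18 ± 0.29, adjusted p = 5.43e-06). None of these 4 genes showed overlap between the groups. Txnip, whose product binds thioredoxin and limits glucose uptake, rose less, from 1290, 783, 768 and 594 to 1665, 1610 and 1514 (0.95 ± 0.23, adjusted p = 0.0442). Its call was lost when 0 h replicate 2, 3 or 4 or any 0.75 h array was left out (adjusted p of 0.128 to 0.318). The call was also lost with only the groups compared in the fit (0.127), without the filter (0.0685) and with the replicate number in the fit (0.324). Of 15 growth and insulin signalling brakes tested, 4 rose (Ddit4, Errfi1, Sesn1 and Tsc22d3) and none fell. Cdkn1a, the cell cycle inhibitor p21, had 65.3 to 103 at 0 h and 122 to 208 at 0.75 h on its brightest probe set without passing the test (0.75, adjusted p = 0.999).

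Per1, a core repressor of the circadian clock and a direct glucocorticoid receptor target, had 12.9, 44.6, 13.2 and 13.1 at 0 h and 221, 252 and 180 at 0.75 h. Untreated replicate 2 stood above the 3 other untreated arrays but far below every treated one, and the rise was 3.10 ± 0.42 (adjusted p = 6.69e-06). Of 13 clock genes tested Per1 alone rose and none fell. The other period gene tested, Per2, had 180 to 260 at 0 h and 182 to 198 at 0.75 h, and Bmal1, a clock activator, 62.1 to 105 and 63.5 to 84.6. Per3 had a probe set but was too dim to be tested. Usp2, a deubiquitinase with clock-controlled forms, had 129, 159, 120 and 130 against 448, 440 and 341, apart but not past the test (1.55 ± 0.42, adjusted p = 0.147).

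Of 12 Kruppel-like and C/EBP factors tested on their brightest probe set, 1 rose (Klf2) and 1 fell (Klf10, described below). Klf2, a Kruppel-like factor of endothelium and lymphocytes, had 183, 170, 146 and 196 at 0 h and 610, 634 and 455 at 0.75 h on its brightest probe set. All treated arrays were above the untreated ones (1.66 ± 0.32, adjusted p = 0.00406), but without 0.75 h replicate 1 or 2 the call was lost (adjusted p = 0.0541 and 0.0538). Another 2 probe sets of Klf2 were tested and did not pass, with differences of 0.91 and 1.39. Cebpd encodes a C/EBP factor of acute-phase and fat cell gene programmes. On 1 probe set it had 6.88, 18.6, 8.94 and 6.29 at 0 h and 136, 188 and 130 at 0.75 h (3.19 ± 0.71, adjusted p = 0.0193). On its brightest probe set, 75.9, 76.6, 44.1 and 61.7 stood against 188, 178 and 172, which did not pass (1.40 ± 0.55, adjusted p = 0.947), so the size of the difference depends on the probe set. The untreated signals of the first probe set lay near the constant added, and with 4 times that constant its difference was 2.16 (adjusted p = 0.0561). The call was also lost without 0 h replicate 1, 3 or 4 or any 0.75 h array (adjusted p of 0.0573 to 0.164), and with the replicate number in the fit (0.084). Nr4a1 encodes the immediate early nuclear receptor NUR77. It had 70.0, 125, 107 and 88.9 at 0 h and 388, 290 and 210 at 0.75 h, again without overlap (1.51 ± 0.35, adjusted p = 0.0308). It no longer passed without 0 h replicate 1, 3 or 4 or 0.75 h replicate 1 or 2 (adjusted p of 0.0573 to 0.453). Nor did it pass with the replicate number in the fit (0.084) or without the arrays lettered b or c (0.0596). Of 17 immediate early genes tested it alone rose and none fell. Egr1 had 70.5 to 112 at 0 h and 104 to 169 at 0.75 h, and Junb 81.0 to 112 and 101 to 143, both with overlapping groups. All treated arrays lay above all untreated arrays in 5 of the 17 (Jun, Nr4a1, Gadd45b, Gadd45g and Rhob) and below them in none. Over all genes, 3.91% lay above and 4.05% below. The median difference of the list was 0.335. Of its 30 members 27 had a probe set, and Fos, Atf3 and Myc were among those not tested. Klf15, a glucocorticoid target that governs amino acid breakdown, had 196, 383, 396 and 358 against 709, 675 and 606 without passing the test (1.02 ± 0.33, adjusted p = 0.467).

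Ccn2 encodes connective tissue growth factor, a secreted matrix-associated protein. Its signals were 235, 401, 382 and 500 at 0 h and 2667, 2542 and 2574 at 0.75 h. The treated arrays lay within a narrow band at a level no untreated array came near, and the rise was 2.80 ± 0.26 (6.95-fold, adjusted p = 1.15e-09). Ccn2 was the single gene to rise among 16 genes of the extracellular matrix and its regulators, and none fell. Mgp, an inhibitor of calcification, had 1043 to 1680 against 1705 to 2029 and did not pass (0.52, adjusted p = 0.999).

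Slc25a25 encodes a mitochondrial carrier of ATP-Mg and phosphate. It varied widely in untreated kidney, with 167, 63.3, 18.2 and 39.7, and stood at 444, 497 and 561 at 0.75 h (3.02 ± 0.60, adjusted p = 0.0045). Without 0 h replicate 3, the lowest array, the call was lost (adjusted p = 0.0527). Amd1, which makes the decarboxylated S-adenosylmethionine needed for polyamines, rose from 262, 269, 243 and 236 to 1014, 554 and 750 (1.54 ± 0.24, adjusted p = 0.00012). Dlg5, a membrane scaffold protein, rose from 66.3, 104, 90.9 and 118 to 345, 258 and 274 (1.56 ± 0.34, adjusted p = 0.0169). Its call was lost without 0 h replicate 1 or 3 or any 0.75 h array (adjusted p of 0.0527 to 0.206). Herpud1 and Edem1 serve the disposal of misfolded proteins of the endoplasmic reticulum. Herpud1 had 224, 333, 260 and 264 at 0 h against 751, 616 and 620 (1.28 ± 0.25, adjusted p = 0.00319), and Edem1 had 271, 298, 269 and 272 against 574, 478 and 542 (0.92 ± 0.16, adjusted p = 0.000546). Both were apart from the untreated range, although Herpud1 did not pass without 0.75 h replicate 1 (adjusted p = 0.0586). Herpud1 alone rose among 17 heat shock and endoplasmic reticulum genes tested, whose median difference was 0.05.

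The remaining 7 genes that rose differed by 0.81 to 1.29. They were the kinase gene Pim3 (151 to 231 at 0 h, 418 to 612 at 0.75 h, 1.29), the inhibitory Smad gene Smad6 (42.6 to 89.4, 113 to 142, 0.98), Ctla2a (49.7 to 69.0, 110 to 149, 0.95), Gucd1 (188 to 226, 376 to 443, 0.92), the Rab5 exchange factor gene Rin2 (350 to 419, 676 to 764, 0.91), the coenzyme A synthesis gene Ppcs (189 to 285, 406 to 440, 0.84) and the peroxisome division gene Pex11a (184 to 213, 326 to 403, 0.81). Rin2 rose on both of its probe sets, the second by 0.98. All of these calls were lost on leaving out at least 1 array. Pim3 was lost without 0.75 h replicate 2 (adjusted p = 0.0538), Gucd1 without 0.75 h replicate 1 (0.0649) and Pex11a without 0.75 h replicate 3 (0.0691). Rin2 was lost without 0 h replicate 1 or any 0.75 h array on its brighter probe set (up to 0.146). Smad6 was lost without 0 h replicate 1, 2 or 3 or any 0.75 h array (up to 0.306), Ctla2a likewise (up to 0.507) and Ppcs without 0 h replicate 2 or 4 or any 0.75 h array (up to 0.195). Losses under other settings included Smad6 with only the groups compared in the fit (0.118) and without the filter (0.0734). With the replicate number in the fit Ctla2a (0.0567) and Ppcs (0.187) were lost as well.

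The list of glucocorticoid-induced genes was chosen with earlier results of these data known, so its counts describe the list and are not independent support. It held 27 tested members, of which 9 rose and none fell: Ddit4, Dusp1, Errfi1, Nfkbia, Per1, Sesn1, Sgk1, Tsc22d3 and Zfp36. On the brightest probe set, all 3 treated arrays lay above all 4 untreated arrays in 17 members, and in no member did all lie below. Over all genes, 3.91% had all treated arrays above and 4.05% had all below. The median difference of the list was 1.31. Members apart but not past the test included Fkbp5, the receptor co-chaperone, with 49.0, 59.8, 69.3 and 39.5 against 97.0, 94.3 and 111 (0.83 ± 0.22, adjusted p = 0.147). Rasd1, a small G protein gene, had 27.4, 5.06, 9.94 and 17.2 against 127, 87.9 and 104 (2.42 ± 0.79, adjusted p = 0.465). Fkbp5 reached 175, 134 and 186 at 1 h, above all 0.75 h arrays. The liver-type target Tat was near 0 in both groups and was not tested.

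No gene of steroid reception or of kidney metabolism on the lists passed the test. Of 10 genes of steroid receptors and steroid metabolism none rose or fell: the glucocorticoid receptor gene Nr3c1 had 195 to 222 at 0 h and 152 to 193 at 0.75 h, apart but not past the test (-0.24, 95% interval -0.51 to 0.04). Hsd11b2, which inactivates glucocorticoids in the collecting duct, had 670 to 908 and 733 to 900, with overlap. None of 11 gluconeogenesis and ammoniagenesis genes passed. Pck1, the gene of the gluconeogenic enzyme PEPCK, had 3442, 3355, 2873 and 3510 against 3005, 3515 and 4083, a difference of 0.09 with a 95% interval of -0.32 to 0.51. None of 18 drug metabolism and transport genes and none of 11 acute-phase and tubular injury genes passed. All 11 of the latter differed upward, around a median of 0.50, against a median of all genes of -0.00427. In 3 of the 11 (Lcn2, C3 and Vim) all treated arrays lay above all untreated arrays, and in none below. Over all genes, 3.91% lay above and 4.05% below. Of the 16 members of that list, Fgb, Hp, A2m, Alb and Serpina3n were not tested. Lcn2, an injury marker, had 24.2 to 80.5 at 0 h and 88.9 to 120 at 0.75 h (0.99, adjusted p = 0.999).

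**Figure D3:**
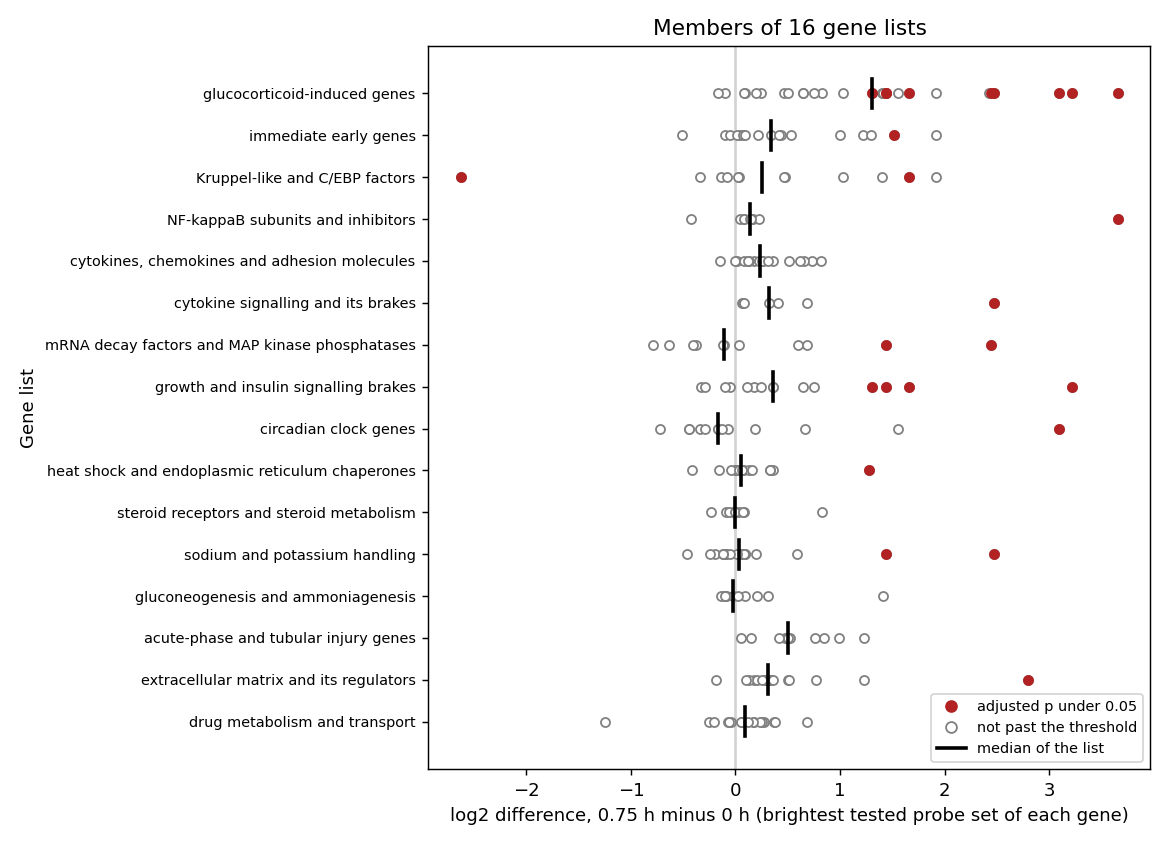
The log2 difference between 0.75 h and 0 h (x axis) of each tested member of 16 gene lists (rows), with members past the threshold filled and the median of each list as a bar. The list of glucocorticoid-induced genes has its median at 1.31 and 9 filled members, and the medians of the other lists lie between -0.17 and 0.50. The lists were chosen with earlier results of these data known.

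For 24 of the 28 genes that rose, RefSeq's GRCr8 table gave the promoter window from 250 bases before to 50 after the annotated start, and Cebpd, Klf2, Smad6 and Txnip were not among them. Both strands were searched for the glucocorticoid receptor half-site AGAACA, the cyclic AMP response element half-site TGACG, the TATA box TATAAA, the CArG box and the NF-kappaB site, and overlapping matches were counted separately. Of these 24 windows 2 held the receptor half-site (Spsb1 and Ppcs), against 20.7% of all 33469 windows in the table. The cyclic AMP half-site was in 9 of 24, against 21.2% of all, the TATA box in 6 of 24 against 14.2%, the NF-kappaB site in 5 of 24 against 7.51% and the CArG box in 2 of 24 against 1.64%. Below are the 2 genes with the smallest p (Sgk1 and Ccn2), the gene with the largest rise (Nfkbia) and the gene with the receptor half-site among the 15 largest rises (Spsb1), all on the minus strand, 5′ to 3′, with the matches in capitals. In Sgk1 (chr1:24807182-24807481) they mark a TATA box 55 bases before the start. In Ccn2 (chr1:22624565-22624864) they mark an NF-kappaB site 92 bases and a TATA box 31 bases before it. In Nfkbia (chr6:78597023-78597322) they mark an NF-kappaB site 31 bases before the start. They also mark TTTATA, a match to the TATA box letters on the opposite strand, 17 bases after the start. In Spsb1 (chr5:165654176-165654475) they mark the receptor half-site 61 bases before and a cyclic AMP half-site 16 bases after it. A match describes the letters and not a site in use.
Sgk1: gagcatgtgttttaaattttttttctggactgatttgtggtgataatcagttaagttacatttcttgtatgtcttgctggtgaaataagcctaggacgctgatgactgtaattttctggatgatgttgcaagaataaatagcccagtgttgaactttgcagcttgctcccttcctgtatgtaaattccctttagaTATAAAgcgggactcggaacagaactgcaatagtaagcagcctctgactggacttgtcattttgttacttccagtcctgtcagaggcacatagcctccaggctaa
Ccn2: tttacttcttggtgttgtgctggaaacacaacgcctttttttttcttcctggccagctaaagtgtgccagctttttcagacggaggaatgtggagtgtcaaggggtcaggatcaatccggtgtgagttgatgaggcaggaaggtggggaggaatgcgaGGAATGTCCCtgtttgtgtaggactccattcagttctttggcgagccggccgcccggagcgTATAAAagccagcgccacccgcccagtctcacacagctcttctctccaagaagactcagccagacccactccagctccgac
Nfkbia: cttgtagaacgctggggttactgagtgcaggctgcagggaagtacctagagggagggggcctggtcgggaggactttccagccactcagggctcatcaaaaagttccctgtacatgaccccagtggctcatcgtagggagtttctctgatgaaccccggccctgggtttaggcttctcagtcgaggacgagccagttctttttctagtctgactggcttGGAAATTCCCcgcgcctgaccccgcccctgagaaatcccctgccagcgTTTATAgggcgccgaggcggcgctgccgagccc
Spsb1: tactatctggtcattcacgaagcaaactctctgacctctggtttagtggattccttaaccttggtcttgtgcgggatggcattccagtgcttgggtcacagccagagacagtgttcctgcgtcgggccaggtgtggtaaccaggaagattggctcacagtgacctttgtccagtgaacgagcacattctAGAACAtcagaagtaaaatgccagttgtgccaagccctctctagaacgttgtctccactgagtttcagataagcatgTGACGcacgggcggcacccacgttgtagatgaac

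The 3 genes that fell were dim or dimmer at 0.75 h. Klf10, a Kruppel-like repressor induced early by TGF-beta, had 184, 146, 130 and 112 at 0 h and 18.1, 13.8 and 17.8 at 0.75 h. The groups were far apart, and the difference was -2.62 ± 0.49 (6.16-fold lower, adjusted p = 0.00266). At 0.5 h it stood at 75.4, 53.5 and 124 and at 1 h at 89.6, 170 and 18.8. Ly6i, which in the mouse encodes a small surface protein of the Ly6 family, had 524, 306, 306 and 196 at 0 h and 68.1, 48.2 and 60.8 at 0.75 h. The treated arrays lay well below the untreated ones (-2.28 ± 0.43, 4.86-fold lower, adjusted p = 0.00297). Nsmce3, a subunit of the SMC5/6 DNA repair complex, had 83.9, 110, 116 and 88.2 against 39.7, 39.8 and 56.4 (-1.02 ± 0.23, adjusted p = 0.0302). It had 45.0 to 74.2 at 0.25 h, 42.6 to 88.45 at 0.5 h and 55.2 to 69.6 at 1 h. Each of these ranges overlapped that of 0.75 h, and over the 17 times the median of Nsmce3 was highest at 0 h (99.4). The call for Nsmce3 was lost without 0 h replicate 2 or 3 or 0.75 h replicate 1 or 2 (adjusted p of up to 0.289). The call was also lost with the replicate number in the fit (0.0567) and without the filter (0.0501).

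Klf10 and Ly6i also had low values on some arrays of other times. On the 53 arrays, Ly6i was under 100 on 10, with 48.2 to 88.1, and at 167 to 601 on the other 43. The low arrays were all 3 of 0.75 h, all 3 of 48 h and 4 others: both arrays of 5 h replicate 1, and single ones of 30 h and 72 h. Klf10 was under 30 on 6 arrays, with 13.8 to 22.4, and at 43.8 to 276 on the other 47, the low ones being the 3 of 0.75 h, 1 of 1 h and 2 of 72 h. At 5 h, replicates 2 and 3 had Ly6i at 261.5 and 250.9. These bounds were drawn after the values were seen, and whether the low values mark the time, the numbered sample or the arrays was not tested.

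**Figure D4:**
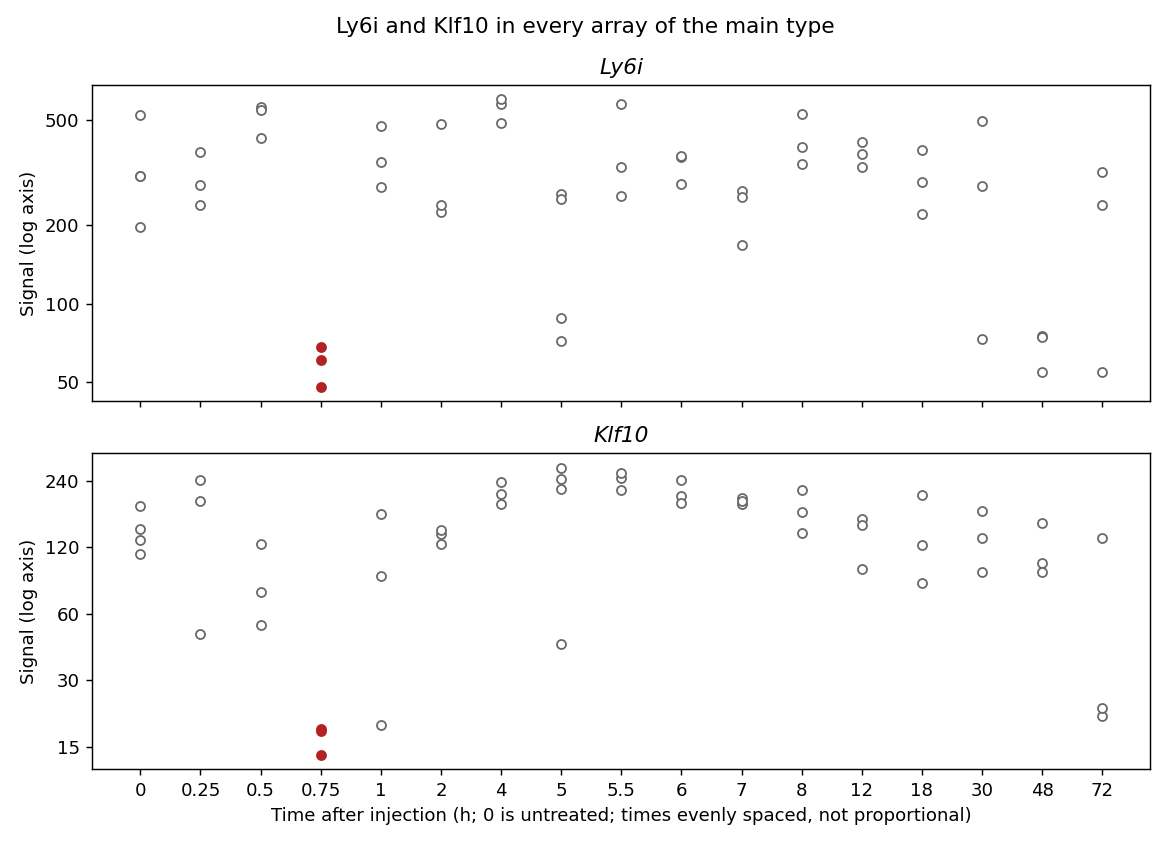
Signal of Ly6i (top) and Klf10 (bottom) on all 53 arrays of the main type, on a log axis, by time with the times evenly spaced. Filled points are the 3 arrays at 0.75 h, which lie among the lowest. Ly6i is also low on all 3 arrays of 48 h and both arrays of 5 h replicate 1, and Klf10 on 2 arrays of 72 h.

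Among genes that did not pass in this direction, those of smallest unadjusted p with all treated arrays below all untreated ones were Unkl, Hexim1, Sertad1, Cyp2c11, Cd59b, Samm50, Slc11a2 and Tpi1. Unkl had 180 to 262 at 0 h and 105 to 158 at 0.75 h (-0.69, adjusted p = 0.0533). Hexim1, whose protein holds P-TEFb inactive, had 363 to 422 against 197 to 278 (-0.72, adjusted p = 0.0659). Sertad1, a regulator of CDK4, had 109 to 166 against 65.7 to 95.4 (-0.76). Cyp2c11, known as a steroid hydroxylase of male rat liver, had 120, 156, 268 and 160 against 85.1, 49.5 and 69.3 (-1.25 ± 0.35, adjusted p = 0.163). The other 4 differed by -0.61 to -0.42. With array weights, which raised the calls of the whole comparison from 34 to 93, all 8 passed (adjusted p of 0.00125 to 0.0192). Sertad1, Cyp2c11, Cd59b, Samm50, Slc11a2 and Tpi1 passed under no other setting. Across the settings the adjusted p reached 0.757 for Unkl, 0.8 for Hexim1 and 0.804 for Sertad1. Unkl also passed with 4 times the added constant (0.0484), with the stricter filter (0.042) and with the libraries of high Fga described below left out (0.043). Leaving out 0 h replicate 2 (0.0469) or 0.75 h replicate 3 (0.0329) likewise brought Unkl past the threshold. Hexim1 also passed with only the groups compared in the fit (0.0428) and without those libraries (0.00614).

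The comparison with 0.5 h asked what had changed since 0.5 h. At 0.75 h, 5 probe sets were lower than at 0.5 h and none higher, that is 0.0525% lower of the 9520 tested by limma, while 552 passed an unadjusted p under 0.05. The 5 genes were the cytokine gene Il1b, the chemokine genes Ccl3 and Ccl4, which draw monocytes, Ly6i, and Chordc1, a co-chaperone of HSP90. Il1b had 790, 919 and 872 at 0.5 h and 221, 41.0 and 49.5 at 0.75 h, against 60.3, 57.5, 36.0 and 29.9 untreated. All 0.75 h arrays lay below the 0.5 h arrays, 2 of them within the untreated range and replicate 1 above it, and the difference was -3.33 ± 0.59 (10.1-fold lower, adjusted p = 0.00623). Ccl3 had 288, 371 and 288 at 0.5 h against 150, 30.7 and 48.9 (-2.20 ± 0.45, adjusted p = 0.0304). Ccl4 had 315, 354 and 299 against 124, 67.7 and 56.3 (-1.94 ± 0.40, adjusted p = 0.0304). In both chemokine genes 0.75 h replicate 1 was again the highest of its group. Ly6i had 428, 561 and 545 at 0.5 h (-2.96 ± 0.46, adjusted p = 0.0012), and Chordc1 had 466, 359 and 360 against 248, 141 and 247 (-0.91 ± 0.17, adjusted p = 0.0193). Without 0.75 h replicate 2 the calls for Il1b (adjusted p = 0.276), Ccl3 (0.576), Ccl4 (0.483) and Chordc1 (0.576) were lost. Without 0.75 h replicate 3 those for Il1b (0.075), Ccl3 (0.188) and Ccl4 (0.243) were lost. Those for Ccl3 and Ccl4 were also lost without any 0.5 h array (0.0618 to 0.122), and that for Chordc1 without 0.5 h replicate 1 (0.172). With only the groups compared in the fit, Il1b (0.0633), Ccl3 (0.204) and Chordc1 (0.379) did not pass.

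Of 18 cytokine, chemokine and adhesion genes tested, 3 were lower than at 0.5 h (Il1b, Ccl3 and Ccl4) and none higher, and all 3 arrays lay below all 3 of 0.5 h in 11, against 5.42% of all genes. Their median difference from 0.5 h was -1.33, and none differed from 0 h by the test. Several of the widest gaps did not pass. In each of these genes 1 h replicate 2 was high, and its part in the outcome was not tested. Cxcl1, a neutrophil chemokine gene, had 1876, 2034 and 1950 at 0.5 h and 164, 9.07 and 12.6 at 0.75 h (-5.66 ± 1.59, adjusted p = 0.268), and at 1 h 17.1, 3101 and 56.5. Ccl2, a monocyte chemokine gene, had 857, 989 and 1059 at 0.5 h and 53.5, 17.8 and 78.4 at 0.75 h (-4.25 ± 1.06, adjusted p = 0.16). Vcam1, an endothelial adhesion molecule gene, had 664, 810 and 725 against 230, 140 and 210 (-1.91 ± 0.43, adjusted p = 0.077). Among immediate early genes, Egr1 had 790, 873 and 1098 at 0.5 h and 169, 117 and 104 at 0.75 h (-2.77 ± 0.70, adjusted p = 0.16), and in 9 of 17 members all arrays lay below those of 0.5 h. In 9 of 17 heat shock and endoplasmic reticulum genes they did so as well. Within the first hour 1 array each of 0.25 h, 0.5 h and 1 h carried Fga, a fibrinogen gene of the acute phase, at over 1000, while at 0.75 h it was at 31.0, 45.4 and 104. With those 3 libraries left out, a choice made after seeing the data, 10 probe sets were lower and 1 higher than at 0.5 h, and Cxcl2 (adjusted p = 0.00511), Egr1 (0.0148) and Vcam1 (0.0148) passed besides Il1b, Ccl3, Ccl4, Ly6i and Chordc1.

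**Figure D5:**
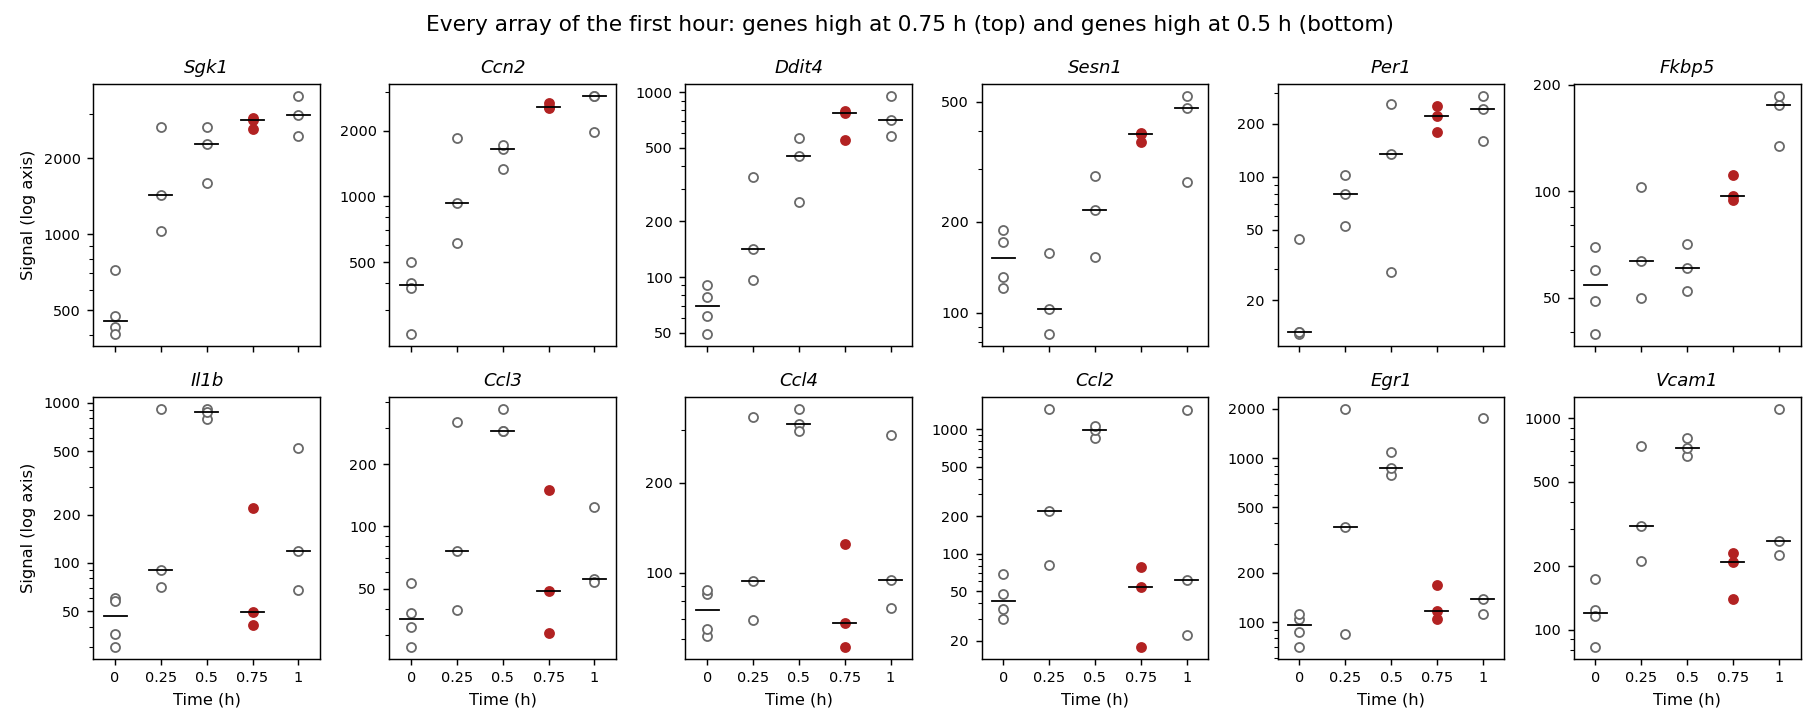
Signal on a log axis of 12 genes on every array at 0, 0.25, 0.5, 0.75 and 1 h, with the median of each time as a bar and the 0.75 h arrays filled. In the top row the 0.75 h arrays lie above all untreated arrays, and in the bottom row they lie below all 0.5 h arrays.

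None of the genes that rose against 0 h differed between 0.5 h and 0.75 h by the test. Nfkbia stood at 1169, 1362 and 1209 at 0.5 h and Zfp36 at 1532, 2088 and 1602, above all their 0.75 h arrays, though the differences of -0.84 and -0.77 did not pass the test. Ccn2 stood at 1638, 1724 and 1330 at 0.5 h and Sesn1 at 285, 220 and 153, below all their 0.75 h arrays (0.74, adjusted p = 0.684, and 0.84, adjusted p = 0.268). Per1 at 0.5 h spanned 29.0, 135 and 258. Against 1 h only Ly6i differed by limma, being lower at 0.75 h than the 278, 476 and 348 of 1 h (-2.47, adjusted p = 0.0385), or 0.0105% of the probe sets, and 302 passed an unadjusted p under 0.05. That call was lost on leaving out any array of either time (adjusted p of 0.0889 to 0.699). No other gene was shown to differ between 0.75 h and 1 h at this number of arrays.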

How the data were processed

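Total RNA of whole rat kidney was measured on Affymetrix arrays. The authors deposited 1 intensity per probe set and array on a linear scale, and the deposited intensities had been scaled per array: after leaving out 2% at each end, array means lay between 150.03 and 150.04 on all 53 arrays of the main type. No source used here gives the algorithm that made them. The members, the gene lists and the marker lists were chosen with earlier results of these data known.

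After removal of 57 control probe sets from 15923, the 10th percentile of the signals (7.63) was added and log2 taken. Probe sets with a mean log2 level at or above the 40th percentile (9520) entered limma 3.58.1 in R 4.3.3, with 1 mean for each of 17 times over 52 libraries (arrays a and b of 5 h replicate 1 were averaged), empirical Bayes moderation with a trend, and Benjamini-Hochberg adjustment at 0.05. The number of arrays limits the precision. No columns were identical. On simulated data with independent normal values, equal spread at all times and no outlying libraries, the fit recovered known changes. The real arrays hold uneven libraries, so the simulation does not measure recovery in them. The second array type, which has no 0.75 h array, was not used.

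Groups came from the labels. Genes named were those past the threshold, on a probe set with 1 symbol and with no overlap between groups: the 15 largest in each direction for 0 h, 8 for 0.5 h and 1 h. Where fewer than 8 passed downward against 0 h, the 8 of smallest p not past it are given as such. Called list members and a few others for their role are named besides. Symbols came from the platform annotation updated to GRCr8 names (12783 probe sets with 1 symbol, 312 with several, 2771 with none). A gene's list value is that of its brightest tested probe set. Deviations of arrays with the same replicate number from their group means correlated with r of 0.03, 0.15 and 0.16, and those with other numbers with r of -0.23 to 0.11. These values do not decide whether the numbers pair the arrays, and the main fit did not take them to. Pseudocount, filter, normalization, moderation, array weights, the samples in the fit, a replicate block and leaving out each array were varied.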

Additional observations from a re-analysis of the deposited data

Results flagged for a closer look

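In 4 of 46 groups of untreated values examined, 1 of the 4 arrays lay apart, its gap to the nearest of the others, as a share of the whole range on the log2 scale, exceeding Dixon's 95% critical value, which chance gives in about 1 in 20 groups. The gap was 0.986 of the range for Per1, where 0 h replicate 2 stood at 44.6 against 12.9 to 13.2, 0.886 for Edem1, 0.862 for the dimmer probe set of Rin2 and 0.8293 for Spsb1. In each of the 4 genes the lone array was the highest of the untreated arrays and lay below all 0.75 h arrays.

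A tested difference from a neighbouring time was found for 5 genes. From 0.5 h to 0.75 h the log2 difference was -3.33 for Il1b, -2.96 for Ly6i, -2.2 for Ccl3, -1.94 for Ccl4 and -0.91 for Chordc1. From 1 h it was -2.47 for Ly6i, whose 0.75 h arrays thus lay below both neighbours.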

How the results depend on the processing

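Of the 34 probe sets called against 0 h, 15 passed under every alternative in which they were tested (Nfkbia, Ddit4, Per1, Ccn2, Sgk1, Zfp36, Depp1, Errfi1, Amd1, Tsc22d3, Sesn1, Edem1, Klf10, Ly6i and a probe set with no symbol listed), 19 were lost under at least 1, and none turned direction. The count was 93 with array weights (71 higher, 22 lower), 58 with only the groups compared in the fit, and 19 to 29 on leaving out 1 array, lowest without 0.75 h replicate 1. With the replicate block it was 26, with 25 of the 34 among them, although the main fit did not take the numbers to pair the arrays. After group means were removed, 2 of the 3 0.75 h arrays correlated best with the untreated array of their own number. Against 0.5 h the 5 calls became 19 with array weights (15 lower, 4 higher), 13 with only the groups compared (2 of the 5 among them), 8 with the replicate block, 2 with the stricter filter, 11 without the libraries of high Fga (added after seeing the data) and 1 to 15 on leaving out 1 array. Against 1 h the single call became 0 by limma with 4 times the pseudocount (299 at an unadjusted p under 0.05), the replicate block (321), robust moderation (298) or without the libraries of high Fga (293), 2 with no filter, and 0 to 1 on leaving out 1 array. The cause of these shifts was not tested. Wide differences such as those of Cxcl1 and Ccl2 from 0.5 h, with 3 arrays at each time, did not pass. The reason was not tested. Values near 7.63 carry little order.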
